A study of Caenorhabditis elegans with 2 samples.

Results

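The heterochronic genes of Caenorhabditis elegans time which cell fates are made at which larval stage. Described here are 10 protein-coding genes, of 19973 in the annotation, and the binding recorded at them for the nuclear hormone receptor NHR-129: lin-14, lin-28, lin-46, lin-66, hbl-1, daf-12, lin-41, lin-29, lin-42 and puf-9. They were chosen by name, as 9 genes of the timing pathway with puf-9, a regulator of hbl-1. The choice was made with earlier results of these data known. A peak was given to a gene when its summit, the base of highest signal, lay between 2 kb upstream of the annotated gene start and the gene end, a stretch called the gene's window. All coordinates are on ce11, the same assembly as WBcel235.

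The study was a chromatin immunoprecipitation experiment with sequencing (ChIP-seq) on whole L2 larvae, males and females pooled. All samples came from strain OP339, which carries the allele unc-119(ed3) on chromosome III and the integrated transgene wgIs339, an eGFP fusion to nhr-129. Both biological replicates belong to 1 group, with no treated or mutant group beside it, and the antibody was recorded only under the name nhr-129. The promoter of the transgene, the input or control library and the number of reads were not given or were not analysed here, and signal from whole larvae cannot be divided among tissues. The peak lists held 6626 thresholded peaks and 30000 calls in each of 3 relaxed lists, 1 pooled and 1 per replicate. The authors cut the thresholded list on reproducibility between replicates, though 33 of its peaks did not overlap a call in both replicates. Signal below is the authors' own value per peak on their scale, and a rank counts down from the highest signal in the same list.

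In the timing pathway, early factors such as LIN-14, LIN-28 and HBL-1 hold cells at early larval fates, and the microRNAs lin-4 and let-7 with its relatives lower these factors as larvae grow. LIN-41 and LIN-29 act late, at the change from larva to adult, and DAF-12, itself a nuclear hormone receptor, links the schedule to steroid hormones and to the dauer decision. At L2, the stage sampled here, LIN-28 and HBL-1 are known to set the fates of dividing hypodermal seam cells.

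The summits of the strongest thresholded peaks of 6 genes are shown first, because they are the stretches on which the levels below rest. Each is 101 bases, read 5′ to 3′ on the plus strand of the RefSeq WBcel235 genome, with the summit at the middle base. Capitals mark matches to the GA repeat GAGAGAGA, which reads TCTCTCTC where it lies on the minus strand. The sequences are chrX:5841266-5841366 upstream of puf-9, chrIV:13887680-13887780 upstream of lin-66, chrX:11467462-11467562 in the first intron of lin-14, chrX:10637647-10637747 in the first intron of daf-12, chrX:5820156-5820256 upstream of hbl-1 and chrV:12967948-12968048 upstream of lin-46.
puf-9: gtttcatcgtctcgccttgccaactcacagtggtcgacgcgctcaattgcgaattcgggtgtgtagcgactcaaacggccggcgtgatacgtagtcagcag
lin-66: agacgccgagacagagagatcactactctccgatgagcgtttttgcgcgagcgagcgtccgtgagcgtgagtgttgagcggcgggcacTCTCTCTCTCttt
lin-14: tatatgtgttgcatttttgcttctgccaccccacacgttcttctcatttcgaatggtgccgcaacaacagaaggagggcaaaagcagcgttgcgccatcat
daf-12: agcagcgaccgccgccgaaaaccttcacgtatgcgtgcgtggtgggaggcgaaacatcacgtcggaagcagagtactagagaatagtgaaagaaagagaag
hbl-1: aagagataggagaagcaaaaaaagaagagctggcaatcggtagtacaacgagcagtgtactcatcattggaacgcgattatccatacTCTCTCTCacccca
lin-46: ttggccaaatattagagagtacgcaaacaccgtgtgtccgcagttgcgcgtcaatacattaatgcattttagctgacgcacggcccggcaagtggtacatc

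The repeat lay in the windows of lin-66 and hbl-1, 38 and 37 bp to the right of the summit. None of the other 6 motifs searched, which are spelled out further on, was found in these 6 windows. The GC share of these windows was lowest at hbl-1, with 44.6%, and highest at lin-66, with 58.4%, against 35.4% for the genome.

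Thresholded summits fell in the windows of 9 of the 10 genes, and lin-29 was the exception. Over all protein-coding genes, 28.0% (5589 of 19973) had such a summit. Because the genes were chosen with earlier results known, puf-9 among them, the counts here are descriptions. The 10 windows were long, with a median of 8.8 kb against 4.03 kb over all coding genes, and a longer window holds more summits. Among the 10759 coding genes whose windows were at least as long as the shortest of the 10 (lin-46, 3876 bp), the share with a summit was 34.4%. The other windows of the 10 were longer, and the share rose with length. Of the 2446 coding genes with windows at least as long as that of lin-66, 1257 had no summit. For the length of lin-41, 800 of 1624 had none. A summit in the 2 kb upstream of the gene was present at 7 of the 10 genes, against 23.1% of coding genes. There were 6 of the 10 genes with 2 or more thresholded summits (lin-14, lin-28, lin-46, lin-66, lin-42 and puf-9), against 6.54% of coding genes, and 3 with exactly 1 (lin-41, hbl-1 and daf-12). This share also rose with length. With windows at least as long as that of puf-9, 621 of 3897 coding genes had 2 or more, and for lin-42 79 of 218. In the relaxed lists, 10 of 10 windows held a summit in the pooled, the replicate 1 and the replicate 2 list, but so did 61.3%, 62.0% and 64.3% of coding genes.

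The 9 windows held 25 thresholded summits, of which 11 lay upstream of the gene, 13 in introns, 1 in a 3′ untranslated region and none in a coding exon. No such split over all thresholded summits is given here, so it describes the 25 alone. lin-14 alone accounted for 11, or 44.0%. Per kb of window there were 0.183 summits in the 10 genes, 0.122 without lin-14, 0.073 over all coding windows and 0.0661 over the genome of 100.3 Mb. The X chromosome carried 4 of the 10 genes and 15 of the 25 summits, 11 of them in lin-14, so that without lin-14 it held 4 of 14. Of all thresholded peaks, 21.2% (1402 of 6626) lay on X. Signal at the 25 peaks had a median of 143.3 and ran between 64.3 and 1635, against a median of 121.9 and a span of 63.4 to 6467 over all thresholded peaks. There were 16 of the 25 above that overall median. Among the 1000 strongest peaks were 5 of the 25, beside 1000 of 6626 over all thresholded peaks, a difference that was not tested. The 5 belonged to puf-9, lin-66, lin-14, lin-28 and lin-41.

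**Figure D1:**
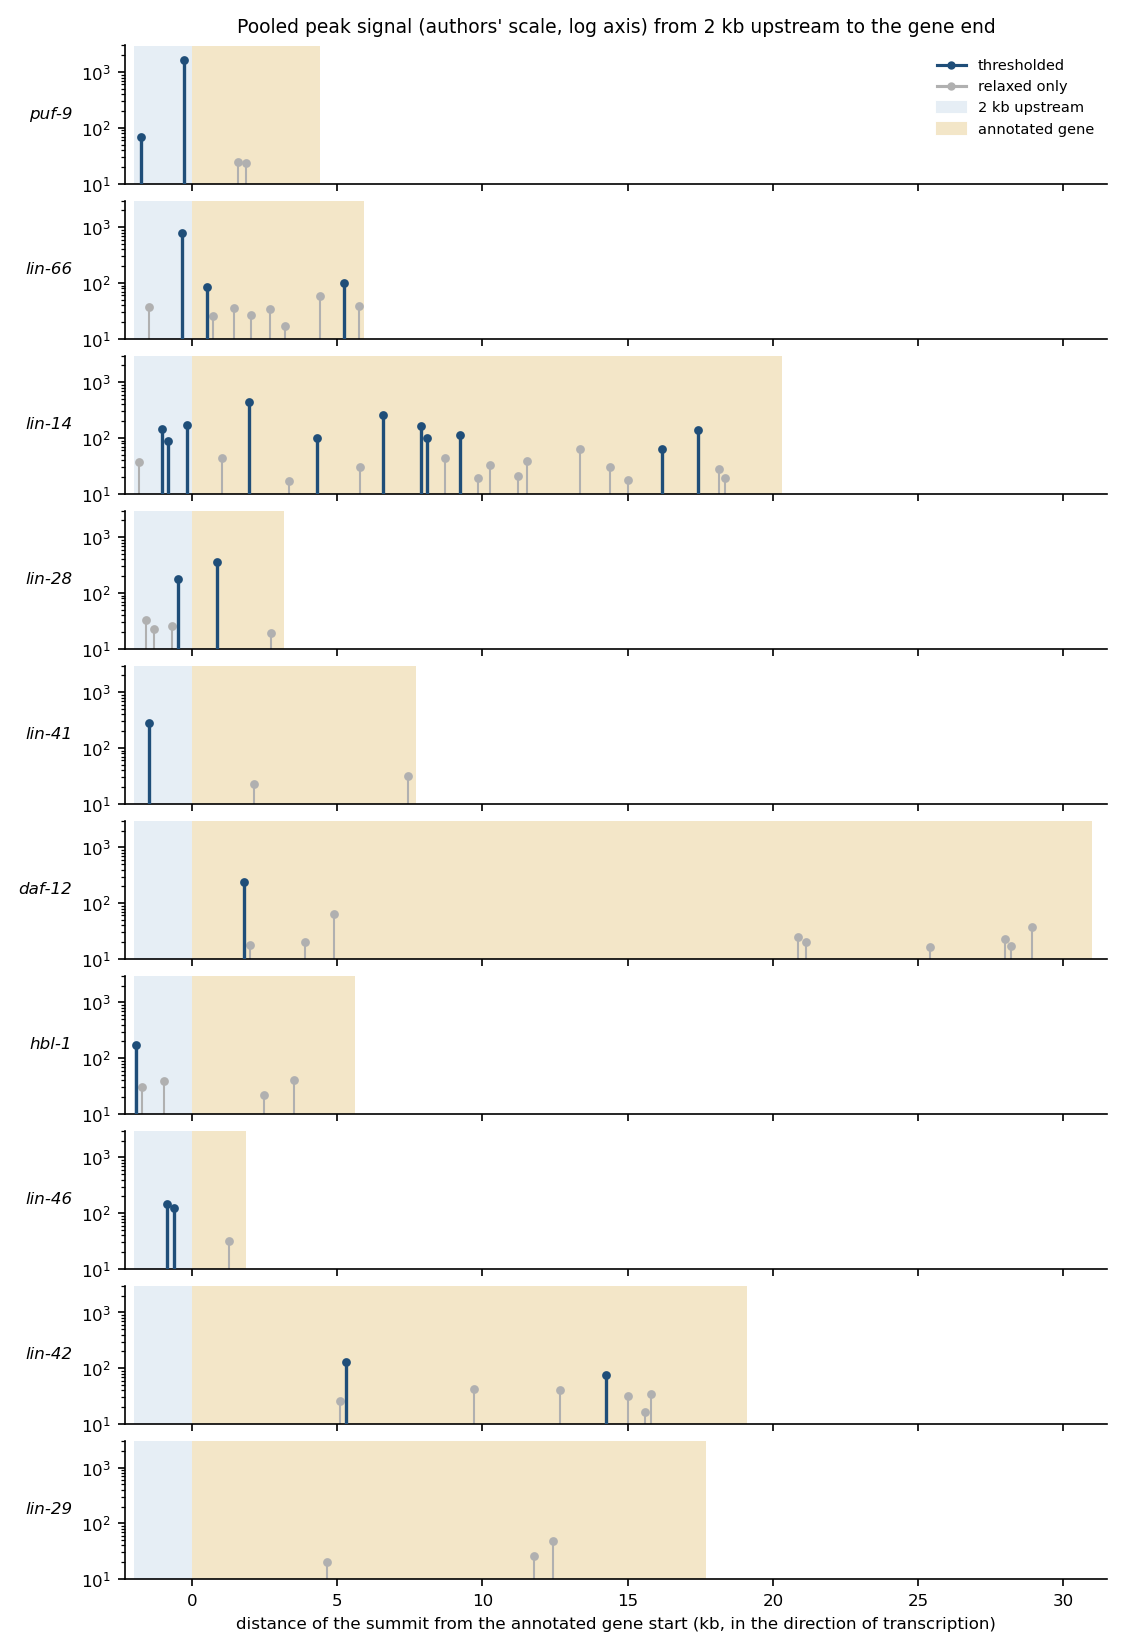
Pooled signal of each summit (vertical axis, log scale) by its distance in kb from the annotated gene start (horizontal axis), with 1 panel per gene. Blue stems are thresholded summits and grey stems are summits in the relaxed pooled list alone. lin-14 carries 11 blue stems on both sides of its start, puf-9 the tallest at 1635, and lin-29 has none.

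lin-14 (WBGene00003003, chrX:11465560-11485871, plus strand) encodes a nuclear DNA-binding protein of early larval fates and is the classic target of lin-4. Its window of 22.3 kb held 11 thresholded summits, 3 upstream and 8 in introns. The strongest peak, chrX:11467366-11467637, lay 1952 bp inside the gene, in an intron of 2818 bp that precedes the start codon. Its signal was 436.8 in the pooled list (rank 357), 245.7 in replicate 1 and 188.3 in replicate 2. The second, chrX:11472074-11472237, had 258.8 pooled, 140.3 in replicate 1 and 119.4 in replicate 2, and lay 6563 bp inside. The peak nearest the gene start, chrX:11465221-11465590, had its summit 154 bp upstream and a signal of 173.8, with 90.2 in replicate 1 and 82.0 in replicate 2. In each of these 3 peaks replicate 1 was the higher, by a log2 ratio of 0.38, 0.23 and 0.14.

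The other 8 lin-14 peaks had lower signals, between 64.3 and 164.9. The third intron, 11174 bp long, held 5 of the 11 summits, at 4308, 6563, 7871, 8094 and 9230 bp from the gene start. With the summit in the first intron, this put 6 of the 8 intronic summits before the second annotated transcript start, at 14801 bp, which opens the shorter transcript. In the same long intron, the summit at 9230 bp had 114.7 pooled, 61.2 in replicate 1 and 67.4 in replicate 2. The summit at 4308 bp had 102.0 pooled, 61.2 in replicate 1 and 39.6 in replicate 2. The last pair lay after the second start, at 16174 bp in the fifth intron of the longer transcript (64.3 pooled, 44.0 in replicate 1 and 22.8 in replicate 2) and at 17424 bp in its sixth (141.5, 82.4 and 59.4). Upstream, besides the summit at 154 bp, there were summits at 1025 bp (143.3 pooled) and 824 bp (89.8 pooled). Each replicate had the same strongest overlapping call for those upstream summits, 82.0 in replicate 1 and 65.1 in replicate 2, and likewise for the summits at 7871 and 8094 bp, 99.2 and 93.9. With the strongest overlapping call taken for each peak, the 11 peaks drew on 9 calls in each replicate. Replicate 1 had a weaker second call at both close pairs, 38.0 with its summit 824 bp upstream and 34.1 with its summit 8020 bp inside. In replicate 2, each of these pairs had a single call.

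Only 5 coding genes had more thresholded summits than lin-14. Of the 187 coding genes with windows at least as long as that of lin-14, 59 had no summit and 3, lin-14 included, had 11 or more. The strongest lin-14 summit lay inside the annotated noncoding RNA T25C12.7, and the summit 824 bp upstream inside T25C12.10. The density over lin-14, 0.493 summits per kb, stood beside 0.516 for the much shorter lin-46 window.

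lin-28 (WBGene00003014, minus strand of chromosome I from 8407630 to 8410804) encodes the RNA-binding protein that promotes L2 fates and blocks maturation of let-7. Its strongest peak, from 8409871 to 8410065, had a summit 867 bp inside the gene, in the first intron (1322 bp) of the longer transcript and 17 bp upstream of the second annotated start. Signal there was 358.7 pooled (rank 530), 173.9 in replicate 1 and 185.5 in replicate 2, so the replicates differed by a log2 ratio of -0.09. The other peak lay 475 bp upstream of the gene, at 177.8 pooled, 116.9 in replicate 1 and 61.7 in replicate 2. That log2 ratio, 0.92, was among the widest of the 25. Its summit also lay 1143 bp upstream of the neighbour F02E9.7 on the opposite strand.

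hbl-1 (WBGene00001824, chrX:5822142-5827755, plus strand) encodes a Hunchback-like zinc finger factor that sets L2 fates and is lowered by the let-7 family. It had 1 thresholded peak, chrX:5820021-5820390, with the summit 1936 bp upstream, near the outer edge of the window. Signal was 172.9 pooled (rank 2071), 109.0 in replicate 1 and 63.2 in replicate 2, a log2 ratio of 0.79. The summit lay within an annotated noncoding RNA, F13D11.20, and with a reach of 1 kb upstream the gene had no thresholded summit.

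lin-46 (WBGene00003031, chrV:12968855-12970730, plus strand) encodes a gephyrin-like protein that acts downstream of lin-28. It had 2 thresholded peaks, at 857 bp upstream (chrV:12967972-12968066, 143.3) and 602 bp upstream (chrV:12968068-12968437, 126.5). The strongest overlapping call was the same for both peaks, 73.3 in replicate 1 and 69.8 in replicate 2. A second call in each replicate, 61.2 in replicate 1 and 66.3 in replicate 2, had its summit near that of the weaker peak. These summits were closer to a neighbouring gene on the opposite strand, R186.8, lying 16 and 271 bp upstream of its start, and were also 788 and 1043 bp upstream of R186.3. Which of the 3 genes the peaks belong to was not tested.

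lin-66 (WBGene00001562, chrIV:13888079-13893986, plus strand) acts upstream of lin-28 and lowers its expression. It carried the second strongest peak of the 10 genes, chrIV:13887406-13887959, with the summit 349 bp upstream. This peak was 554 bp wide, against the commonest width of 370 bp, which 76.4% of all thresholded peaks had. Signal was 791.6 pooled (rank 83), 385.8 in replicate 1 (rank 118) and 402.5 in replicate 2 (rank 61). Among coding genes, 110 had a strongest peak at least as high, lin-66 included. Weaker peaks lay 504 bp inside, in the first intron (84.3 pooled, 40.1 in replicate 1 and 44.2 in replicate 2), and 5231 bp inside. The peak at 5231 bp was the only summit of the 25 in a 3′ untranslated region. It had 99.7 pooled, 68.2 in replicate 1 and 33.9 in replicate 2, the widest log2 ratio of the 25 at 1.01. Among the 6626 strongest calls of replicate 2 alone, lin-66 had 5 summits.

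daf-12 (WBGene00000908, chrX:10635908-10666875, plus strand) had the longest of the 10 windows, 33.0 kb, and 1 thresholded summit. The peak, chrX:10637624-10637787, lay 1789 bp inside, in a first intron of 8353 bp that precedes the start codon of a transcript beginning at the gene start. Signal was 239.4 pooled (rank 1235), 123.0 in replicate 1 (rank 1406) and 146.5 in replicate 2 (rank 704). The log2 ratio of -0.25 was the lowest of the 25. No other annotated daf-12 start was near it, since the next lay 8501 bp from the gene start. Of the 56 coding genes with windows as long or longer, 15 had no thresholded summit. The 9 further pooled calls in the daf-12 window had signals between 16.1 and 62.8, below the lowest thresholded value of 63.4.

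lin-41 (WBGene00003026, minus strand of chromosome I from 9334800 to 9342496), a let-7 target, encodes an RNA-binding TRIM-NHL protein. It had 1 thresholded peak, from 9343779 to 9344148, with the summit 1468 bp upstream of the gene. Signal was 275.8 pooled (rank 960), 134.2 in replicate 1 and 144.2 in replicate 2. The log2 ratio at this peak was -0.10, beside a median of 0.31 over all thresholded peaks called in both replicates. Among the 6626 strongest calls of replicate 2 alone, lin-41 had 2 summits. As at hbl-1, no thresholded summit remained in the window with a reach of 1 kb.

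lin-29 (WBGene00003015, chrII:11917642-11935343, minus strand) encodes the zinc finger factor of the larval-to-adult switch and was the 1 gene of the 10 without a thresholded summit. The relaxed lists held weak calls in its window of 19.7 kb. Pooled signals were 48.3 (rank 8581), 25.4 and 20.4. The highest call was 36.8 in replicate 1 and 10.5 in replicate 2, where the replicate 2 list had a minimum of 8.9. These replicate maxima were not at the same place, with summits 12378 and 7057 bp from the gene start. The nearest thresholded summits were 24068 bp upstream of the gene start, with a signal of 171.5, and 36887 bp past the gene end, with 97.6, leaving 78.7 kb without one. An empty window of this length was common, since 98 of the 272 coding genes with windows at least as long had no thresholded summit.

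lin-42 (WBGene00018572, chrII:1233236-1252359, minus strand) encodes the worm's Period-like protein, which oscillates with the molts and lowers transcription of timing microRNAs. Both of its thresholded summits were intronic. The peak chrII:1246862-1247231 lay 5312 bp inside, in a first intron of 8173 bp, with 127.2 pooled, 68.7 in replicate 1 and 57.5 in replicate 2, and its summit was inside the noncoding RNA F47F6.15. The other, chrII:1237904-1238273, lay 14270 bp inside and 1120 bp from the nearest of the 5 annotated transcript starts. It had 74.6 pooled, 36.2 in replicate 1 and 41.9 in replicate 2. Among the 6626 strongest calls of replicate 1 alone, lin-42 had 1 summit. With 0.0947 summits per kb lin-42 was below lin-66, at 0.379, and above daf-12, at 0.0303. Of 218 coding genes with windows as long or longer, 73 had none.

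puf-9 (WBGene00004245, chrX:5841592-5845987, plus strand) encodes a Pumilio-family RNA-binding protein that represses hbl-1 through its 3′ untranslated region. The peak chrX:5841040-5841523, with the summit 276 bp upstream, was the strongest of the 25 and the 10th strongest of all 6626. Signal was 1635 pooled, 935.4 in replicate 1 (rank 9) and 705.4 in replicate 2 (rank 14), a log2 ratio of 0.41. In 9 coding genes, puf-9 included, the strongest peak reached this level. The value is a description, because the height of this peak was known when puf-9 was put beside the timing genes. The peak was 484 bp wide and overlapped the annotated noncoding RNAs W06B11.7 and W06B11.9. It also lay 1538 bp upstream of dct-11, on the opposite strand. A weaker summit 1739 bp upstream of puf-9, at 67.8 pooled, 39.8 in replicate 1 and 29.9 in replicate 2, was 75 bp upstream of dct-11.

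**Figure D2:**
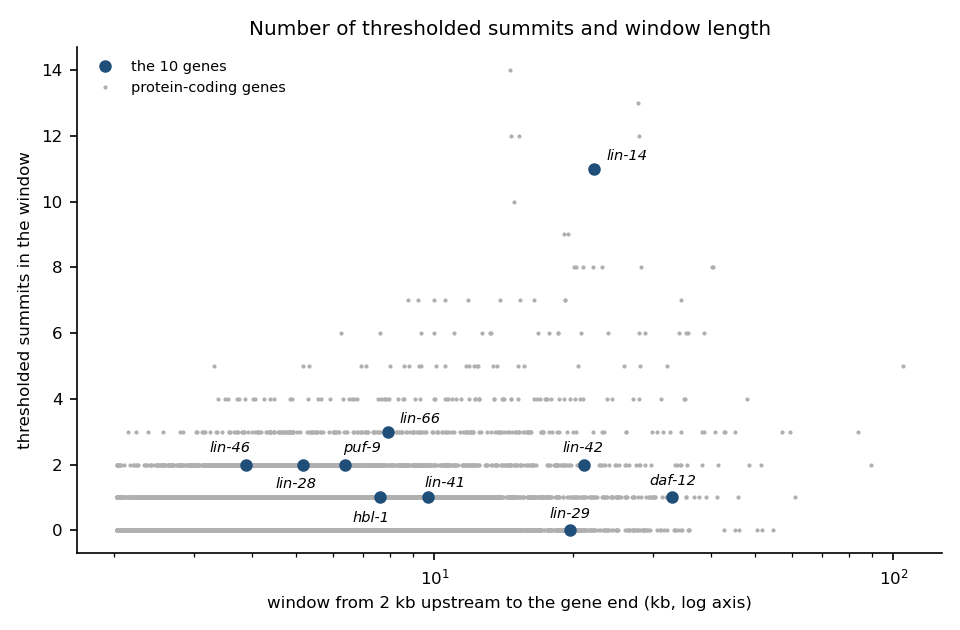
Number of thresholded summits in the window (vertical axis) against window length in kb (horizontal axis, log scale), for the 10 genes (labelled) and all protein-coding genes (grey). lin-14, with 11 summits in 22.3 kb, stands above the other labelled genes, and lin-29 lies on 0.

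Ordered by the highest signal in the pooled lists, the 10 genes ran puf-9, lin-66, lin-14, lin-28, lin-41, daf-12, hbl-1, lin-46, lin-42 and lin-29. Replicate 1 gave the same order. Replicate 2 exchanged lin-41 with daf-12 and hbl-1 with lin-46, so the order of these neighbours differed between the replicates. The steps between puf-9 and lin-66 and between lin-66 and lin-14 were kept in both replicates, at 935.4, 385.8 and 245.7 in replicate 1 and 705.4, 402.5 and 188.3 in replicate 2. lin-14 stood above lin-28 in replicate 1 (245.7 and 173.9) but the values were near each other in replicate 2 (188.3 and 185.5). With 2 replicates of 1 group no test was made of these differences.

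Each of the 25 thresholded peaks overlapped a call in both replicates, as did 6593 of all 6626 (99.5%). The thresholded list was chosen by the authors on both replicates, so this overlap is no independent check. The median log2 ratio of replicate 1 over replicate 2 was 0.23 (SD 0.37, n = 25) at the 25 peaks and 0.31 (SD 0.49) over all thresholded peaks called in both. Replicate 1 was the higher at 18 of the 25 and replicate 2 at 7. None of the 25 ratios fell outside the central 95% of all peaks, which spanned -0.65 to 1.35. The 25 ratios are not independent, because the rule of taking the strongest overlapping call gave 3 pairs of peaks the same values, leaving 22 distinct calls in each replicate. The weaker second calls given above for lin-14 and lin-46 do not enter these ratios.

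**Figure D3:**
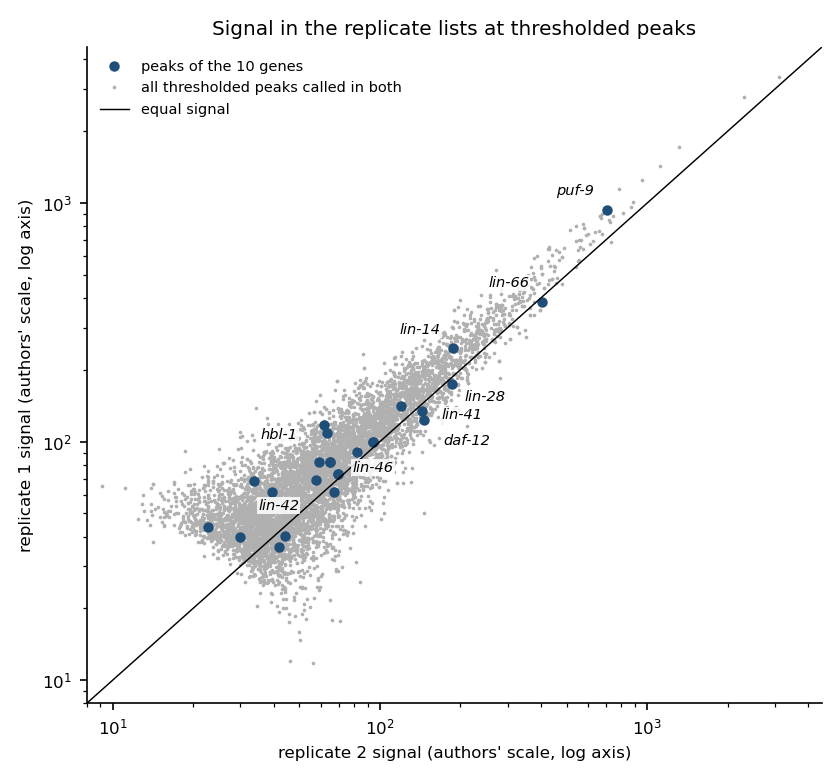
Signal of the strongest overlapping call in replicate 1 (vertical axis) against replicate 2 (horizontal axis), both log scales. Blue points are the peaks of the 10 genes, with the strongest labelled for each gene that had one. Grey points are all thresholded peaks called in both replicates. The puf-9 peak, at 935.4 and 705.4, is the highest of the blue points. The 25 peaks, drawn from 22 distinct calls in each replicate, lie within the grey cloud.

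Below the threshold, further calls lay in the same windows. The pooled relaxed list held 78 summits in the 10 windows. Of these, 53 were calls not in the thresholded list, though some of the 53 overlapped a thresholded peak. Replicate 1 held 82 and replicate 2 held 72, with 54 and 44 from calls that overlapped no thresholded peak. The pooled and replicate counts are thus not alike in this respect. Per kb the 78, 82 and 72 summits came to 0.57, 0.6 and 0.526 in the 10 windows, against 0.299 over the genome in each list. lin-14 again held the most, with 25 pooled, 28 replicate 1 and 25 replicate 2 summits, followed by lin-66 with 11, 13 and 11. daf-12 held 10, 9 and 6, and lin-42 held 8, 7 and 7. The remaining 6 genes held between 3 and 6 pooled summits each.

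Of the 25 summits, 6 lay within 500 bp of an annotated transcript start of their gene and 9 within 1 kb, with a median distance of 1468 bp. Within 1 kb there were 2 of the 11 lin-14 summits and 7 of the 14 others. There were 20 summits in the window of no other coding gene. The 5 shared summits were the weaker lin-28 peak and both peaks of lin-46 and of puf-9. All 5 were upstream of genes running in opposite directions. Shares over all thresholded summits are not given here for these distances or for shared windows, so the counts describe the 25 alone.

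The letters around the 25 summits were compared with those around all thresholded summits, in windows of 50 bp on either side and on both strands. GC share had a median of 48.5% (32.7% to 70.3%) at the 25 and 45.5% over all thresholded summits, where the 10th to 90th percentile spanned 36.6% to 54.5%. The GA repeat was found in 3 of 25, at lin-66, hbl-1 and the inner lin-42 peak, against 8.16% of all windows. The E-box CACGTG, the nuclear receptor half-site AGGTCA and the DAF-12 half-site AGTGCA were found in 1 window each, against 5.19%, 3.65% and 5.87% of all. All 3 were in lin-14 introns, at 4308, 7871 and 16174 bp from the gene start. The GATA site AGATAA, the CRE TGACGTCA and the C/EBP site TTGCGCAA were in none of the 25, against 4.90%, 1.18% and 0.528% of all windows. Counted together, 24.0% of the 25 windows and 26.2% of all windows held at least 1 of the 7 motifs, a share near the background. A match describes these letters and not a binding site, and no motif of NHR-129 itself was used.

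Around the 10 genes, 5 lists of further pathway genes were read in the same way. Of their 45 genes, 21 (46.7%) had a thresholded summit. The shares beside it are 28.0% of all coding genes and 34.4% of those with windows of at least 3876 bp. The 45 are not all protein-coding, since they include the 5 microRNAs, the long noncoding RNA lep-5 and the pseudogene puf-4. Both coding shares stand beside each list below except the microRNAs. Neither is matched to the window lengths of the lists, and genes with long windows hold more summits. Of the 3897 coding genes with windows at least as long as that of puf-9 (6396 bp), 2164 had no summit. For the length of lin-66 (7908 bp), 1257 of 2446 had none. The timing microRNAs had 1 of 5, against 28.0% (73 of 261) of annotated microRNA genes. That gene was let-7, with a peak at chrX:14747060-14747261, 1870 bp upstream of the annotated gene. Signal was 327.9 pooled (rank 666), 162.8 in replicate 1 and 164.9 in replicate 2. lin-4 and the let-7 relatives mir-48, mir-84 and mir-241 had none in their windows. The windows were not alike, because the annotated let-7 gene is longer than the others. The let-7 window was 3732 bp, and the others ran from 2075 bp (mir-84) to 2098 bp (mir-48). Genes that make, load or clear microRNAs had 6 of 9 (66.7%), against 28.0% and 34.4% of coding genes. Their windows ran from 5421 bp (ain-1) to 12263 bp (xrn-2), so these shares are not matched in length. The highest were nhl-2, a TRIM-NHL cofactor of the silencing complex, at 812.6 (rank 74), and ain-1, a GW182-type protein of that complex, at 578.7 (rank 187). xrn-2, an exonuclease that degrades microRNAs, had 387.6 and ain-2 had 161.4, while drsh-1, pash-1 and dcr-1, which encode the processing enzymes and their partner, had no thresholded summit.

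Other timing partners had 9 of 15 (60.0%) with a summit, again against 28.0% and 34.4% of coding genes. Their windows ran from 2930 bp (lep-5) to 23764 bp (sea-2), again not matched in length. The strongest peaks were at the membrane-bound transcription factor gene myrf-2 (476.1), the casein kinase gene kin-20 (411.8), myrf-1 (258.0) and sea-2 (184.7). In the pathway of DAF-12, 3 of 6 had one. din-1, which encodes a corepressor partner of DAF-12, had 6 summits with a highest signal of 461.9. The insulin receptor gene daf-2 had 416.5, and daf-16, the FOXO factor gene downstream of it, had 8 summits with a highest signal of 368.2. The hormone synthesis genes daf-9 and daf-36, and daf-7, had none in windows of 5897, 4198 and 3930 bp. The part that window length played in this split was not tested. Other PUF family genes had 2 of 10, a share below the 28.0% and 34.4% of coding genes. These were puf-12 at 142.3 and puf-3 at 74.1, beside 1635 at puf-9.

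**Figure D4:**
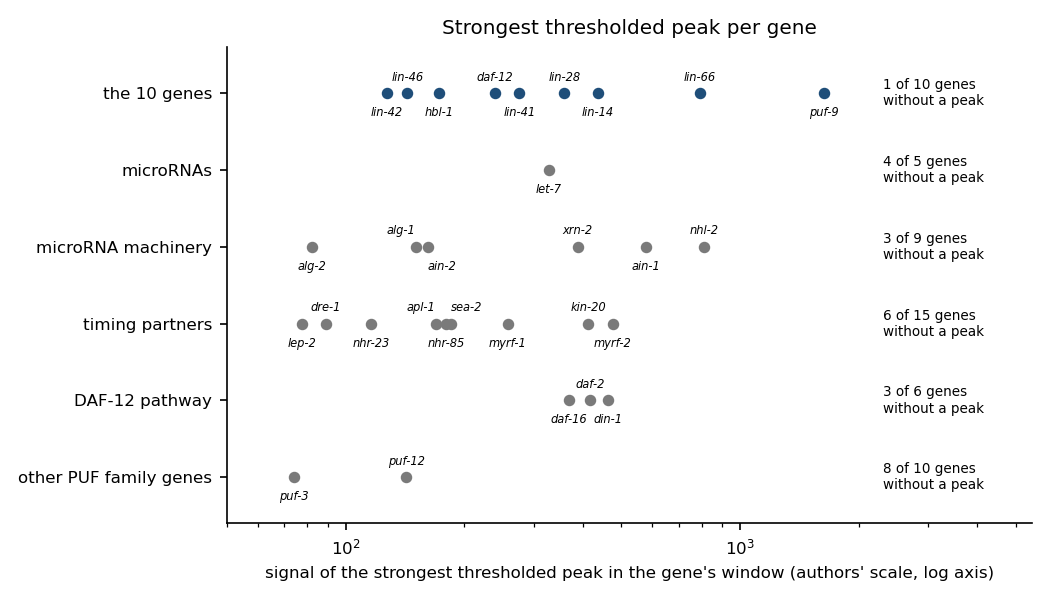
Signal of the strongest thresholded peak in each gene's window (horizontal axis, log scale) for the 10 genes, in blue on the top row, and the 5 lists of partner genes, in grey. Numbers at the right count genes without a peak, and the puf-9 value of 1635 is the highest point in any row.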

How the data were processed

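Chromatin from 2 biological replicates of 1 group was profiled. Per the labels, fragments of 150 to 350 bp were selected and ce11 is named as an assembly; the aligner, peak caller, control and read depth were not given in the sources used here, so no counting error can be attached. The signal per peak and its −log10 q-value are the deposited values as the authors made them; the −log10 q-value was 4.15 at each of the 25 peaks described. Per the deposited file descriptions, the thresholded list was cut on the irreproducible discovery rate between the replicates. In the values it holds the pooled calls of highest signal, so it shares reads with both replicates.

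Summits (start plus deposited offset) were assigned to windows from Ensembl release 115 (WBcel235) with Python 3.11.15, numpy 2.4.6 and pandas 2.3.3. For each thresholded peak the strongest replicate call sharing at least 1 bp with it was used. let-7 and puf-4 were matched through RefSeq by identical coordinates. Functions were tested on simulated data. Named were the 10 genes with each thresholded peak, up to 4 genes per partner list by signal plus some without a peak chosen after their values were seen, and genes sharing a summit. The 10 genes and the lists were chosen with earlier results of these data known, so counts stand beside shares over all coding (or microRNA) genes and no test was made. Alternatives varied the reach (1 or 5 kb), peaks kept, replicate, matching rule and motif window.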

Additional observations from a re-analysis of the deposited data

How the results depend on the processing

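No paired analysis was possible because there was 1 group. With the 1000 strongest thresholded peaks, 5 of the 10 genes instead of 9 had a summit, with 5 summits in all, 3 of them upstream and 0.0366 per kb, against 5.76% of coding genes and 0.00997 per kb of genome. With the stronger 3313 peaks there were 16 summits and 0.117 per kb, against 0.033 per kb of genome. Leaving out lin-14, an alternative added after seeing the data, left 14 summits and 0.122 per kb. Counting only summits in no other coding window left 0.146 per kb and 6 upstream, and 7 genes, without lin-46 and puf-9. No share of coding genes is given for this setting. A reach of 1 kb gave 7 upstream summits and 7 genes, without lin-41 and hbl-1, against 23.1% of coding genes. Windows of 100 and 25 bp around the summit gave 10 and 2 of 25 with a motif, against 43.0% and 14.1% of all windows. With the 6626 strongest calls of either replicate in place of the pooled list (for relaxed summits, the replicate's own list), 9 genes, 23 to 27 summits, 0.168 to 0.197 per kb, 11 to 12 upstream summits, 72 to 82 relaxed summits and 20 to 21 partner genes were found. Of coding genes, 27.8% had a summit with replicate 1 alone and 27.7% with replicate 2 alone. Matching replicate calls by summits within 100 bp or by a reciprocal overlap of 50% kept 22 or 20 of the 25 peaks in both replicates. Shares over all thresholded peaks are not given for these rules. The median log2 ratio of 0.23 became 0.10 with the nearest call within 100 bp, and 0.06 after dividing each signal by its list's median. Of the 52 alternative values of the main results, 39 stayed within the limits for calling them unchanged and 13 moved. The limit for counts was a 1.5-fold change. Densities were judged by another limit, under which 0.146 against 0.183 per kb counted as moved. Counts and densities cannot change sign, and the median log2 ratio counted as unchanged although it fell to 0.10 and 0.06. Read depth was not given, so what depth limits could not be measured.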

Other observations

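hbl-1 and puf-9, which encodes a repressor of hbl-1, are neighbours on the X chromosome, 13836 bp apart on the same strand with 3 coding genes between them. The stretch held 3 thresholded summits, of which 2 lay in the puf-9 window. The other, at chrX:5837050-5837419, had a signal of 104.3 (rank 3977), 4357 bp before the puf-9 start and outside both windows. The relaxed lists held 9 pooled, 11 replicate 1 and 8 replicate 2 summits in the stretch.

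Neighbouring summits were never closer than 199 bp in any of the 4 lists. Among thresholded summits within 400 bp of the next, 138 of 184 pairs (75.0%) were 210 bp apart or less, and the share was 49.8% in the pooled, 47.5% in the replicate 1 and 48.9% in the replicate 2 relaxed list. In the windows of the 10 genes, 3 pairs of thresholded summits were within 400 bp and 1 of these at 210 bp or less. Counting summits within 250 bp once, an alternative added after seeing the data, gave 23 in place of 25.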
